A study of Mus musculus with 22 samples.

Results

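The 77 genes described here carry the symbols of mitochondrial ribosomal proteins. They are the protein-coding genes present in both deposited tables whose mouse symbol begins with Mrpl or Mrps and a number, out of 30735 genes in all. Of these, 48 carry a large subunit symbol (Mrpl) and 29 a small subunit symbol (Mrps). Values came from 22 left ventricular libraries of FVB mice aged 3 to 5 months. The mice carried a VCP transgene (VCP TG) or were wild type (WT), and had transverse aortic constriction (TAC), which narrows the aortic arch and loads the left ventricle with pressure, or a sham operation. The groups were VCP TG TAC at 2 weeks (3 libraries), WT TAC at 2 weeks (4), VCP TG sham (4), WT sham (4), VCP TG TAC at 5 weeks (3) and WT TAC at 5 weeks (4). No sham libraries of 5 weeks were analysed here. The sources used here do not give the promoter that drives the transgene, or which libraries came from which animal. The p-values therefore measure the spread between these libraries, which may be technical.

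The mitochondrial ribosome translates the respiratory chain subunits that mitochondrial DNA encodes, and its proteins are made from nuclear genes and imported. The large subunit forms peptide bonds and leads the growing chain to the inner membrane, and the small subunit reads the messenger RNA. The heart depends on oxidative phosphorylation, and in humans recessive variants in several of these genes, among them MRPL3, MRPL44 and MRPS22, cause mitochondrial disease with cardiomyopathy. VCP (valosin-containing protein), the product of the transgene, is an ATPase that pulls ubiquitinated proteins out of membranes and complexes.

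The deposited values are transcripts per 1000000 (TPM), so the read depth of a library is unknown. Between 11629 and 16813 genes reached 1 TPM in a library. The 13 mitochondrially encoded protein genes took 27.9% to 72.9% of TPM, with both extremes in VCP TG sham, replicate 3 low and replicate 4 high. Because TPM sums to a fixed total, each comparison is also given on values rescaled so that nuclear protein-coding genes sum to the same total in every library. Ventricular markers were abundant in every library, with a summed level of 17165 to 36815 TPM over 8 genes. Summed atrial markers (6 genes) ranged from 15.2 to 10591 TPM and stood at 1724 TPM or more in 4 libraries, namely VCP TG sham replicates 3 and 4, VCP TG 2 weeks TAC replicate 2 and WT 2 weeks TAC replicate 1. Vcp stood at 125 to 151 TPM in VCP TG and 47.7 to 119 TPM in WT at 2 weeks TAC, at 73.5 to 186 TPM in VCP TG sham and 45.7 to 82.6 TPM in WT sham, and at 39.1 to 118 TPM in VCP TG and 47.7 to 123 TPM in WT at 5 weeks TAC. The genotypes overlapped in Vcp in the sham and 5 weeks groups. On rescaled values the Vcp levels of 5 libraries lay nearer the median of the other genotype under the same operation and time (VCP TG sham replicate 1, WT 2 weeks TAC replicate 1, VCP TG 5 weeks TAC replicate 3 and WT 5 weeks TAC replicates 2 and 3), and medians without them are given below. Directions between genotypes follow the labels.

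All 77 genes were detected at 1 TPM or more in every library, the lowest value being 1.12 TPM for Mrpl57 in VCP TG sham replicate 4. The median of their mean levels was 21.2 TPM, against 4.88 TPM for all 15540 genes tested at 2 weeks. The median gene varied 3.15-fold between its lowest and highest library. Mrpl42 had the highest mean over all libraries (292 TPM, range 106 to 492), followed by Mrpl48 (219 TPM, 91.3 to 527), Mrps21 (185 TPM, 103 to 288), Mrpl30 (103 TPM, 53.6 to 156) and Mrpl52 (77.2 TPM, 40.2 to 113). These 5 genes supplied 34.0% of all mitochondrial ribosomal protein TPM. Mrpl42, Mrpl48 and Mrpl52 encode proteins that bacterial ribosomes lack, whereas Mrps21 and Mrpl30 encode relatives of bacterial ribosomal proteins. At the low end stood Mrpl57 (3.81 TPM, 1.12 to 5.69), Mrpl19 (4.05 TPM, 1.25 to 6.65), Mrpl11 (4.60 TPM, 2.49 to 6.28), Mrps27 (6.32 TPM, 3.22 to 9.12) and Mrpl44 (6.51 TPM, 1.72 to 12.7). Neighbours in this order overlapped in their ranges. The order is that of all libraries pooled: in VCP TG TAC, Mrpl48 averaged 394 ± 117 TPM and Mrpl42 314 ± 28.3 TPM at 2 weeks, and Mrpl48 averaged 298 ± 90.1 TPM and Mrpl42 159 ± 45.6 TPM at 5 weeks (SD, n = 3 each).

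The genes lie on 17 chromosomes, 11 of them on chromosome 11. In the annotation 28 overlap another gene, 5 of them on the same strand. Mrps6 shares its strand with Slc5a3, and the paired genes Mrps11 and Mrpl46 overlap on opposite strands. The sources used here do not give how reads in such overlaps were assigned. Mrpl48 overlaps Rab6a and Cox20b on the opposite strand.

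**Figure D1:**
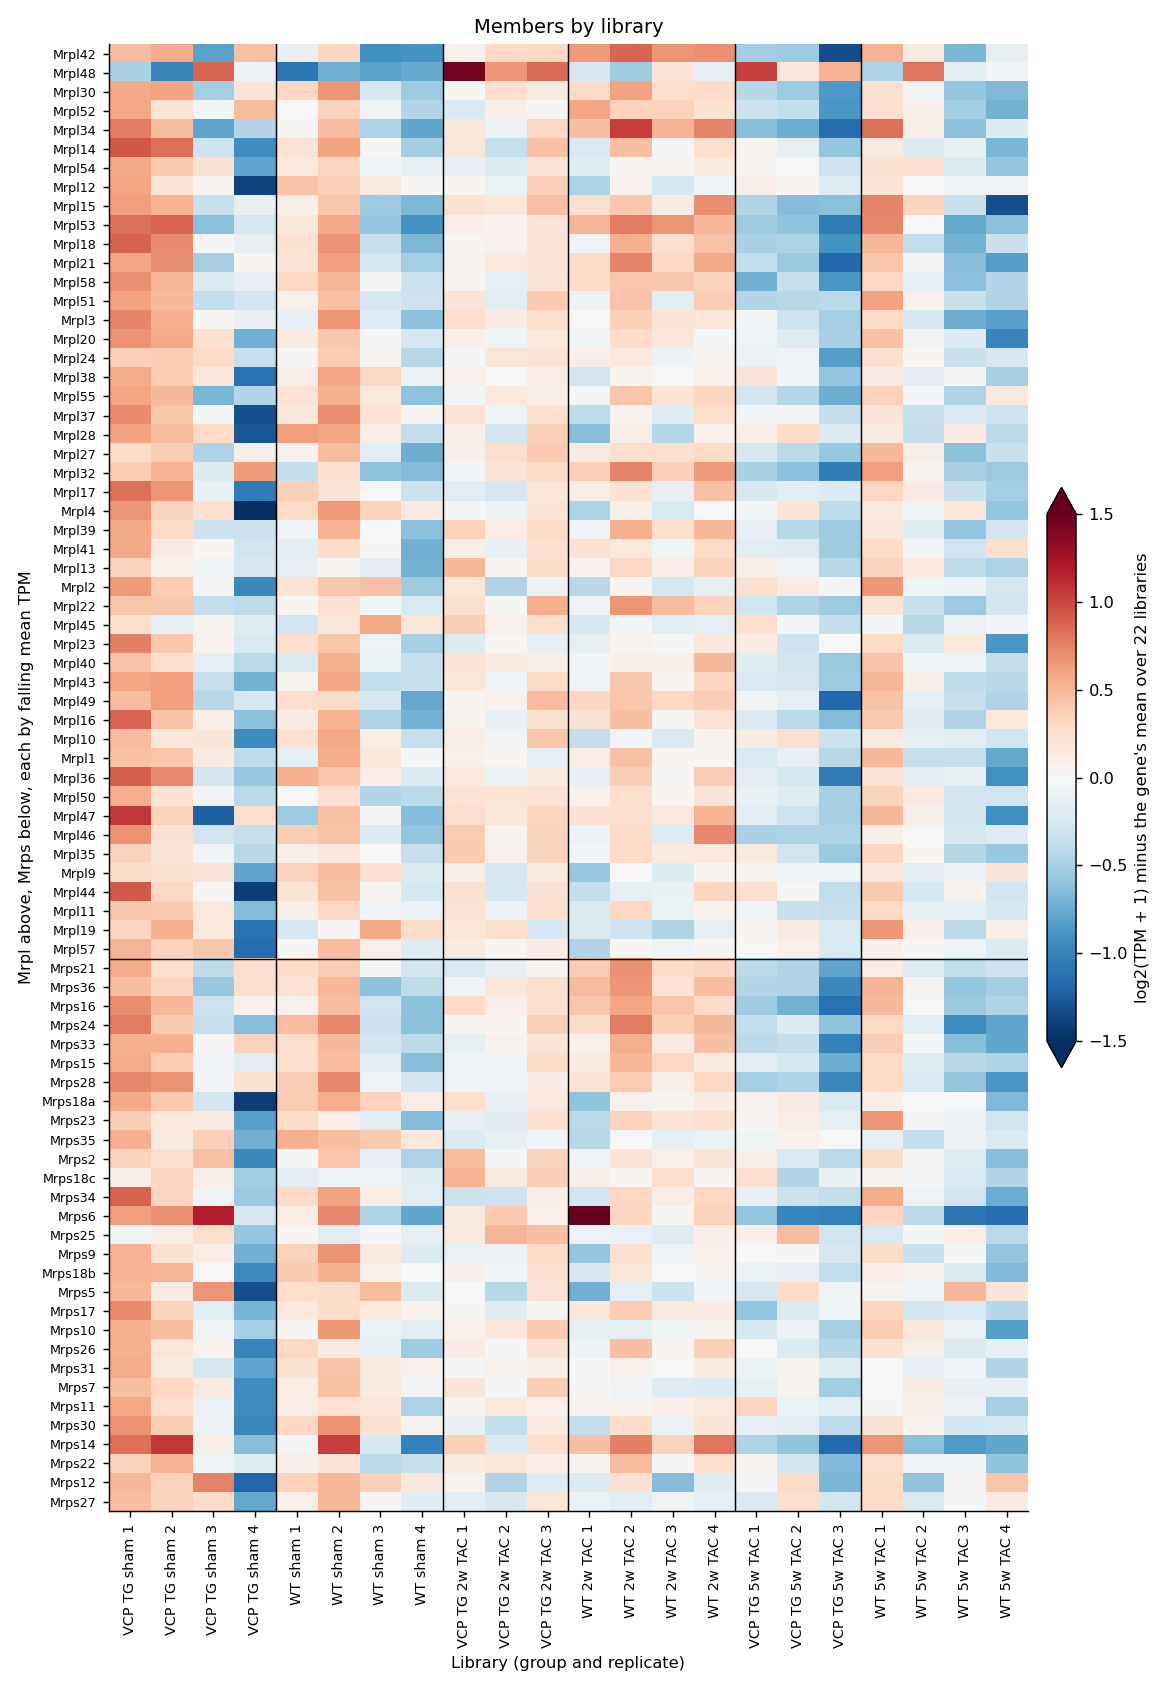
Each row is a mitochondrial ribosomal protein gene and each column a library. The colour gives the deviation of log2(TPM + 1) from the gene's mean over all 22 libraries. The 2-week and 5-week libraries come from separate tables. VCP TG sham replicates 1 and 2 lay above the gene's own median for 75 of 77 genes each and VCP TG sham replicate 4 for 10, and Mrpl48 ran against most other genes.

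Promoters were read from RefSeq (GRCm38.p6) for 68 of the 77 genes, with 74 transcription starts and 250 bases before to 50 after each. Nuclear genes of mitochondria are known for sites of the factors NRF1, GABP (an ETS factor) and YY1. The letters CCGGAAG (ETS), AAGATGGCG (YY1) and the NRF1 palindrome, which is spelled by the capitals in the Mrpl32 line below, were searched on both strands, and no matches of different motifs overlapped. The NRF1 letters occurred in 3 of the 74 promoters (4.05%, against 0.971% of 32851 promoters), the ETS letters in 25 (33.8%, against 8.86%) and the YY1 letters in 8 (10.8%, against 1.40%). At least 1 of them occurred in 34 (45.9%, against 10.8%). A match describes these letters and shows no binding. The promoters of Mrpl42, Mrpl32, Mrpl34 and Mrpl48 are shown because the results below give their values in most detail. Each line gives 150 bases before the start and 50 from it on, 5′ to 3′ on the gene's strand, with motif letters in capitals. Mrpl42 holds the YY1 letters 27 bases past the start, Mrpl32 the NRF1 letters and Mrpl34 the ETS letters upstream of it. Of 4 Mrpl48 starts, the innermost holds the ETS letters, on the reverse strand.
Mrpl42 (chr10:95501900-95502099, minus strand): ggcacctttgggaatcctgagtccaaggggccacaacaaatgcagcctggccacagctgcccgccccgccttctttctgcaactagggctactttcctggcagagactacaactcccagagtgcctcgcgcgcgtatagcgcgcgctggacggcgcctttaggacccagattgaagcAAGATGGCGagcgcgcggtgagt
Mrpl32 (chr13:14612988-14613187, minus strand): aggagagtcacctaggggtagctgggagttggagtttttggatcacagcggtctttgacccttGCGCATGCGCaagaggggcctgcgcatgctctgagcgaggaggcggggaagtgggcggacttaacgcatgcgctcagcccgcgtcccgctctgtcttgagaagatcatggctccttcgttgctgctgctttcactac
Mrpl34 (chr8:71464776-71464975, plus strand): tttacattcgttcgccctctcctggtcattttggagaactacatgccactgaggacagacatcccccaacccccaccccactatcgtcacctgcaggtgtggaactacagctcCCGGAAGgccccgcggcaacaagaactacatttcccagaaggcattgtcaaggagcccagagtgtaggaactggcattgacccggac
Mrpl48, outermost start (chr7:100608252-100608451, minus strand): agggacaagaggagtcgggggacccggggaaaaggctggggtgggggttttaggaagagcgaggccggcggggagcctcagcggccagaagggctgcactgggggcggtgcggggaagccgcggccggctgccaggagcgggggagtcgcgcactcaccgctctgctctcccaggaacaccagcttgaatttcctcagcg
Mrpl48, innermost start (chr7:100583081-100583280, minus strand): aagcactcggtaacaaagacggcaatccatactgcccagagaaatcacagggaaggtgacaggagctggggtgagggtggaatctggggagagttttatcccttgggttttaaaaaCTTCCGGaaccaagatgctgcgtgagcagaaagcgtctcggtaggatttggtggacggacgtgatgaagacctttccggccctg

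Summed over the 77 genes, the level was 2828 ± 194 TPM in VCP TG (SD, n = 3) and 2978 ± 238 TPM in WT (n = 4) at 2 weeks TAC, and 2811 ± 656 TPM in VCP TG sham and 2432 ± 623 TPM in WT sham (n = 4 each). At 5 weeks TAC it was 2002 ± 308 TPM in VCP TG (n = 3) and 2322 ± 561 TPM in WT (n = 4). In each of these pairs the libraries of the groups overlapped. On values rescaled to nuclear protein-coding genes, the sums at 2 weeks TAC were 5494, 6804 and 7028 in VCP TG, against 7950, 9843, 8879 and 8919 in WT. Every VCP TG library was then below every WT library, whereas the sham groups (7970 ± 1769 in VCP TG, 7033 ± 846 in WT) and the 5 weeks groups (5684 ± 795 in VCP TG, 7108 ± 1111 in WT) overlapped. The change of scale follows the share of TPM held by nuclear protein-coding genes, which was 38.5% to 52.3% in VCP TG and 32.2% to 34.4% in WT at 2 weeks TAC. Most of a set of 1346 olfactory and vomeronasal receptor genes are not known to be used by the ventricle. The mean over the set was 0.841, 0.311 and 0.450 TPM in VCP TG, against 0.133, 0.107, 0.197 and 0.200 TPM in WT at 2 weeks TAC. The part of this background in the rescaled difference was not tested.

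**Figure D2:**
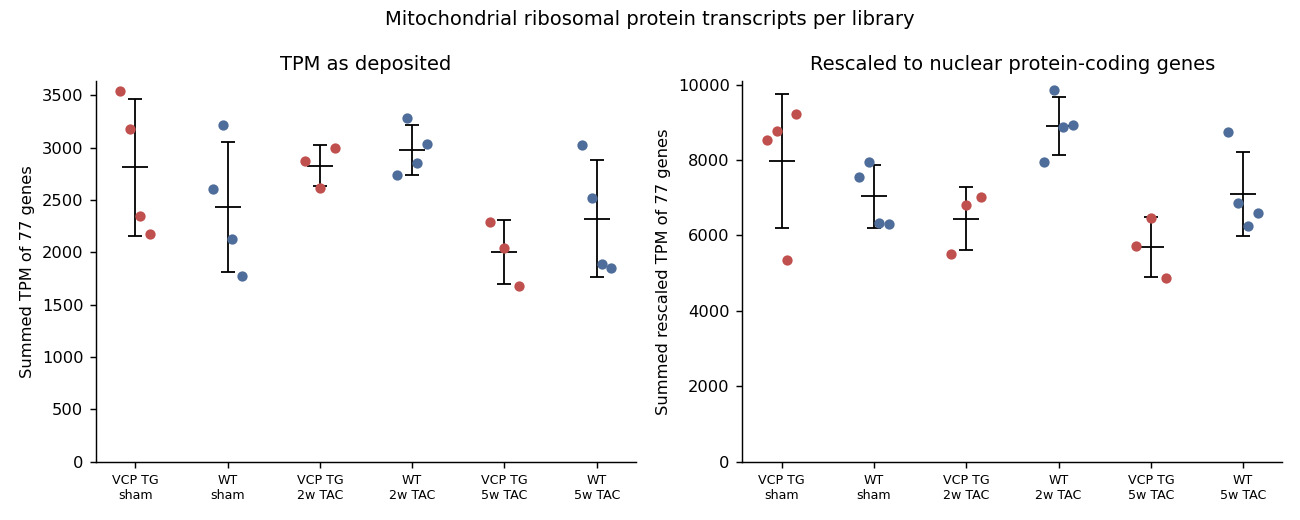
Summed level of the 77 genes in each library (points), with the mean and SD of each group (bars), as deposited TPM on the left and rescaled to nuclear protein-coding genes on the right. At 2 weeks TAC the groups overlap on the left, and on the right the VCP TG libraries end at 7028 while the WT libraries begin at 7950.

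Pressure overload in WT hearts was examined at 2 weeks, TAC against sham. With all 4 groups of the 2-week table in the fit, 0 of 77 genes passed limma at an adjusted p of 0.05, where 0% of all genes passed in either direction. At an unadjusted p of 0.05, 4 genes were higher and 1 lower, against 2.94% and 8.47% of all genes. With WT TAC and WT sham alone in the fit, 2 genes rose, Mrpl42 and Mrpl32, and 0 fell, where 0.722% of all genes rose and 6.31% fell. The median difference of the 77 genes was 0.15 on the log2 scale, against -0.13 for all genes, and 49 of 77 were positive, against 35.6% of all genes. This median moved with single libraries, as did that of all genes. It was 0.00028 without WT sham replicate 4, against -0.22 for all genes (39 of 77 positive, against 27.7% of all genes). Without WT TAC replicate 4 it was 0.07, against -0.12. Without WT sham replicate 2 it was 0.25, against -0.07 (53 positive, against 41.9% of all genes). In each of these fits it stayed above the median of all genes.

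Mrpl42 had 418, 492, 424 and 430 TPM in WT TAC and 245, 337, 141 and 143 TPM in WT sham. All TAC libraries were above all sham libraries, and the sham libraries spread more widely. Its log2 difference was 1.12 ± 0.27 (SE; limma adjusted p = 0.0376 with these groups alone, 0.323 with all 4 groups). Mrpl32, a zinc-binding large subunit protein that the m-AAA protease matures in mouse and yeast, had 29.6, 39.0, 29.6 and 36.2 TPM in WT TAC and 17.6, 27.3, 14.7 and 14.3 TPM in WT sham. These groups did not overlap either, and the log2 difference was 0.87 ± 0.21 (limma adjusted p = 0.0377 with these groups alone, 0.323 with all 4). Both calls were lost, with these groups alone, without WT sham replicate 3 or without any 1 of the 4 WT TAC libraries. Calls over all genes fell in those fits too, to 0.141% to 0.297% higher and 0.222% to 2.85% lower. With every library kept they were 0.722% and 6.31%. Without WT sham replicate 1 the calls were 1 higher and 0 lower (against 0.586% and 4.48% of all genes). Without replicate 2 they were 5 higher and 0 lower (against 1.54% and 4.28%), and without replicate 4 they were 3 higher and 3 lower (against 0.930% and 14.9%). Over all alternatives of the 4-group fit the adjusted p of Mrpl42 ran from 0.0292 to 0.735, and that of Mrpl32 from 0.0274 to 0.735.

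Mrpl34, another small and highly basic large subunit protein, had 76.6, 116, 80.3 and 93.4 TPM in WT TAC and 57.7, 77.3, 40.4 and 32.1 TPM in WT sham. Only WT sham replicate 2 reached into the TAC range, and the gene did not pass (0.87 ± 0.26, limma adjusted p = 0.0647 with these groups alone). It passed without the libraries rich in atrial transcripts, WT TAC replicate 1 among them (0.94, limma adjusted p = 0.0427). In that fit 0.821% of all genes rose and 7.40% fell. Over all alternatives the adjusted p of Mrpl34 ran up to 0.735. Mrpl53, whose gene shares its strand with a predicted gene, had 62.6, 74.8, 69.3 and 61.7 TPM in WT TAC and 49.3, 65.3, 28.9 and 23.0 TPM in WT sham, and did not pass (0.79 ± 0.28, adjusted p = 0.106). At the other end, Mrps35, a small subunit protein without a bacterial relative, had 21.6, 29.2, 26.4 and 27.2 TPM in WT TAC, against 42.5, 40.3, 38.7 and 32.8 TPM in WT sham. Its groups did not overlap, and it missed the threshold (-0.55 ± 0.16, limma adjusted p = 0.0576 with these groups alone). Mrps12, which lies at the decoding centre, differed by -0.54 ± 0.19, Mrps5 by -0.51 ± 0.20 and Mrpl4, which lines the exit tunnel, by -0.50 ± 0.18, and limma passed none of them.

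Between WT TAC and WT sham, 6 of 77 genes had every TAC library above every sham library (Mrpl13, Mrpl32, Mrpl42, Mrpl48, Mrpl49 and Mrps18c), a share of 7.79% where all genes gave 2.48%. In the opposite direction there were 2 (Mrpl4 and Mrps35), a share of 2.60% where all genes gave 13.7%. On rescaled values the counts were 13 higher (16.9%, against 4.07%) and 9 lower (11.7%, against 16%). Large subunit genes had a median difference of 0.17 and small subunit genes of 0.07. Markers of cell types were described as well. Summed macrophage markers stood at 72.0 to 203 TPM in WT TAC and 48.7 to 99.8 TPM in WT sham, and summed atrial markers at 51.6 to 9595 TPM in WT TAC and 39.5 to 158 TPM in WT sham. For both lists 6 of 6 differences were positive, with medians of 0.57 and 2.37, and no gene of either passed limma. Endothelial markers had 155 to 231 TPM summed over 6 genes in WT TAC and 216 to 267 TPM in WT sham. With these groups alone in the fit 2 of the 6 (Esam and Tie1) and 1 of 8 ventricular markers (Myh6) fell, where 6.31% of all genes fell. Differences were positive for 1 of the 6 endothelial and 2 of the 8 ventricular markers. The part of these cell types in the result was not tested. In whole tissue, fewer cells of a type and less RNA per cell cannot be told apart.

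**Figure D3:**
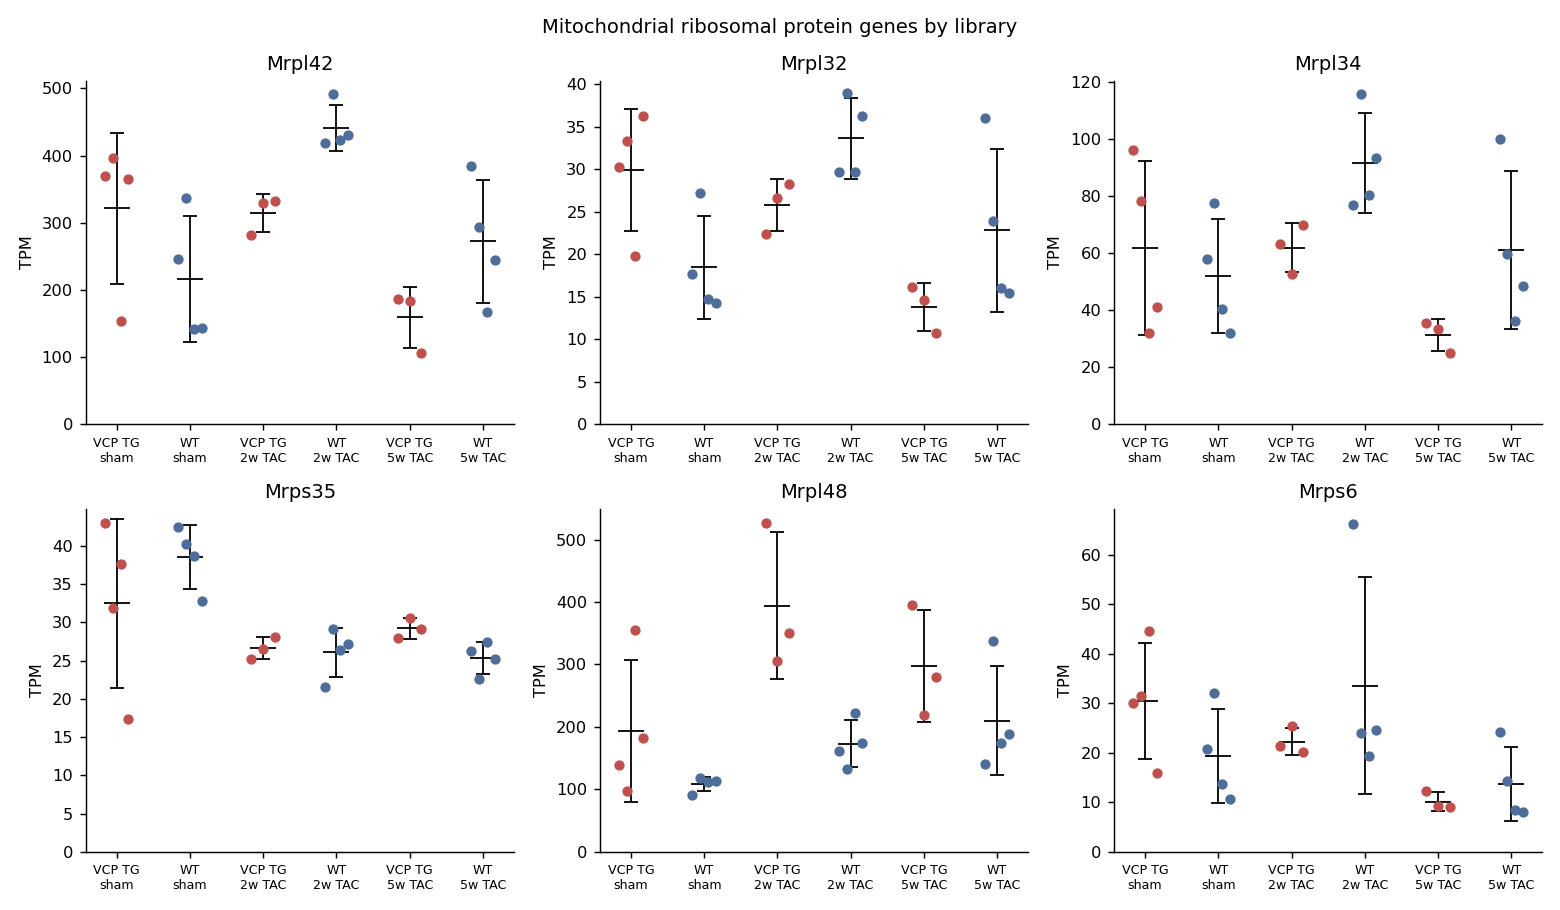
TPM of 6 genes in each library (points) with the mean and SD of each group (bars). All 4 WT 2w TAC libraries lie above all WT sham libraries for Mrpl42 and Mrpl32 and below them for Mrps35, the VCP TG 2w TAC libraries (305 to 527 TPM) lie above the WT 2w TAC libraries (133 to 223 TPM) for Mrpl48, and 1 WT 2w TAC library holds 66.2 TPM of Mrps6.

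Pressure overload in VCP TG hearts was examined in the same way. Of 77 genes, 0 passed limma between VCP TG TAC at 2 weeks and VCP TG sham, where 0.766% of all genes were called higher and 0.00644% lower. With these groups alone 0 passed as well, where 0.35% of all genes were called higher and 0.0137% lower. At an unadjusted p of 0.05, 1 gene was higher, Mrpl48, and 0 lower, against 8% and 0.772% of all genes. The median difference was 0.04, against 0.02 for all genes, and 43 of 77 were positive. Its sign depended on single libraries. Without VCP TG sham replicate 4 it was -0.21, and so was that of all genes (14 of 77 positive, against 28.8% of all genes). Without VCP TG sham replicate 3 it was -0.06, against 0.16 for all genes. Without VCP TG TAC replicate 3 it was -0.05, against -0.01. It was 0.16 without VCP TG sham replicate 1 or 2, against 0.09 and 0.04 for all genes. In 0 genes did the groups separate in either direction, where 3.35% of all genes separated upward and 0.676% downward. On rescaled values 0 genes separated upward (against 2.97% of all genes) and 2, Mrps35 and Mrps6, downward (2.60%, against 9.51%). On that scale 3 of 77 differences were positive and 74 negative, where 38.1% of all genes were positive. The median there was -0.28, against -0.16 for all genes, here the 20306 that passed the filter after rescaling. In VCP TG sham 2 libraries (replicates 3 and 4) were rich in atrial transcripts. Summed red cell markers (5 genes) stood at 84.6 to 90.04 TPM in VCP TG TAC and 106 to 2178 TPM in VCP TG sham, with 0 of 5 differences positive and a median of -1.90, no gene passed limma, and their part in the result was not tested. Without the 4 libraries rich in atrial transcripts the median was -0.34, against -0.11 for all genes, and 1 gene, Mrpl48, was called higher, against 4.80% of all genes. That fit set only VCP TG TAC replicates 1 and 3 against VCP TG sham replicates 1 and 2. Without the libraries whose Vcp level went against the label the median was 0.16, against 0.09 for all genes.

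Mrpl48 had 527, 305 and 351 TPM in VCP TG TAC at 2 weeks, against 139, 97.5, 355 and 183 TPM in VCP TG sham. The groups overlapped through VCP TG sham replicate 3. The log2 difference was 1.15 ± 0.34 (limma adjusted p = 0.129). Without VCP TG sham replicate 3 it was 1.498 and passed (limma adjusted p = 0.00423), where 4.93% of all genes were called higher. Over all alternatives the adjusted p ran from 0.00254 to 1. VCP TG sham replicate 3 also had the highest receptor gene level among sham libraries, 0.292 TPM, where the other sham libraries had 0.0450 to 0.121 TPM. After Mrpl48, the highest differences were those of Mrps25 (0.44 ± 0.24), Mrps18c (0.34 ± 0.24) and Mrps18a (0.28 ± 0.36), and the lowest those of Mrps28 (-0.38 ± 0.27), Mrps6 (-0.36 ± 0.41), Mrpl23 (-0.34 ± 0.28) and Mrpl52 (-0.33 ± 0.25). Mrps18a, Mrps18b and Mrps18c are related to the same bacterial protein, and the Mrps18a product sits in the large subunit.

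The genotypes were compared under load at 2 weeks, VCP TG TAC against WT TAC. By limma 0 of 77 genes passed, where 0.0901% of all genes were called higher and 0% lower. With these groups alone 0 passed as well, where 0.0565% of all genes were called higher and 0% lower. The median difference was -0.03, against 0.16 for all genes, and 35 of 77 were positive, against 73.2% of all genes. With 1 library left out this median ran from -0.08 (without VCP TG TAC replicate 3) to 0.02 (without WT TAC replicate 2). On rescaled values the median was -0.42, against -0.08 for the 20306 genes that passed the filter on that scale, and 73 of 77 were negative. Without WT TAC replicate 1, whose Vcp level went against the label, the deposited median was -0.07, against 0.19 for all genes. At an unadjusted p of 0.05, 1 gene was higher, Mrpl48, and 0 lower, against 9.24% and 0.335% of all genes.

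In 10 genes every VCP TG TAC library was below every WT TAC library (Mrpl21, Mrpl30, Mrpl32, Mrpl34, Mrpl42, Mrpl52, Mrpl53, Mrpl58, Mrps17 and Mrps21), a share of 12.99% where all genes gave 2.78%. In 4 genes every VCP TG TAC library was higher (Mrpl45, Mrpl48, Mrps10 and Mrps25), a share of 5.19% where all genes gave 19%. On rescaled values 33 genes were lower without overlap (42.9%, against 17.7% of all genes) and 1, Mrpl48, higher (1.30%, against 5.88%). No test was made of these shares.

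Mrps21, a relative of a bacterial small subunit protein, had 153, 165 and 185 TPM in VCP TG TAC and 234, 288, 221 and 224 TPM in WT TAC. The groups lay well apart, with a log2 difference of -0.52 ± 0.26 (limma adjusted p = 0.559). Mrpl42 had 282, 329 and 332 TPM in VCP TG TAC, below the 418 to 492 TPM of WT TAC (-0.49 ± 0.34, adjusted p = 0.820). Mrpl34 had 63.0, 52.6 and 69.6 TPM in VCP TG TAC, below the 76.6 to 116 TPM of WT TAC (-0.55 ± 0.35, adjusted p = 0.769). Mrpl32 had 22.4, 26.6 and 28.3 TPM in VCP TG TAC, just below the 29.6 to 39.0 TPM of WT TAC. Mrpl53 averaged 47.3 ± 2.18 TPM in VCP TG TAC (n = 3) and 67.1 ± 6.16 TPM in WT TAC (n = 4), and Mrpl52 averaged 73.2 ± 8.81 TPM in VCP TG TAC and 97.5 ± 10.8 TPM in WT TAC. Limma passed none of these genes.

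Mrpl48 went against the other abundant genes. At 2 weeks TAC it had 527, 305 and 351 TPM in VCP TG, against 161, 133, 223 and 175 TPM in WT, with no overlap. Its log2 difference was 1.17 ± 0.34 (limma adjusted p = 0.161 with all 4 groups), and 1.17 ± 0.23 with these groups alone (adjusted p = 0.0542). Without the libraries rich in atrial transcripts it passed (1.31, adjusted p = 0.0167), where 4.30% of all genes were called higher. That fit set only VCP TG TAC replicates 1 and 3 against WT TAC replicates 2, 3 and 4. Over all alternatives the adjusted p of Mrpl48 ran from 0.0167 to 1. VCP TG TAC replicate 1, with the highest Mrpl48 level, also had the highest receptor gene level (0.841 TPM), and the part of this background was not tested. Rab6a, which Mrpl48 overlaps on the opposite strand, had 17.2, 19.4 and 17.6 TPM in VCP TG TAC, against 26.7, 21.7, 20.6 and 20.3 TPM in WT TAC, and every VCP TG library was below every WT library. Mrps25, a small subunit protein specific to mitochondria, had 22.8, 29.5 and 28.3 TPM in VCP TG TAC, against 19.4, 19.0, 17.8 and 22.1 TPM in WT TAC (0.43 ± 0.24, adjusted p = 0.664). Mrpl45, which holds the ribosome at the inner membrane, had 20.8, 16.8 and 18.9 TPM in VCP TG TAC, against 13.2, 15.4, 14.1 and 14.2 TPM in WT TAC (0.38 ± 0.24, adjusted p = 0.778).

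**Figure D4:**
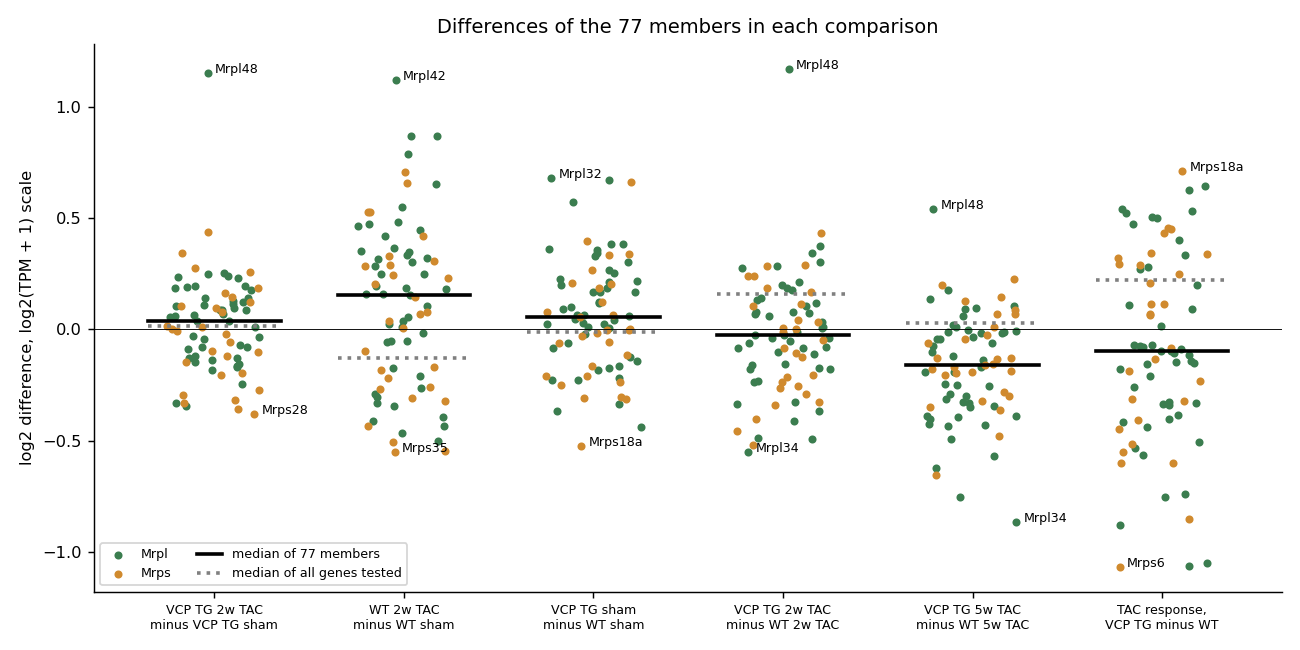
Log2 differences of the 77 genes (points) in each comparison with their median, beside the median of all genes tested. The members' median lies above that of all genes for WT 2w TAC minus WT sham (0.15 against -0.13) and below it for VCP TG minus WT at 2 weeks TAC (-0.03 against 0.16) and at 5 weeks TAC (-0.16 against 0.03).

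Whether the response to TAC differed between genotypes was asked with an interaction term, the VCP TG difference minus the WT difference at 2 weeks. Of 77 genes, 0 passed limma, where 0.00644% of all genes were called higher and 0% lower. At an unadjusted p of 0.05, 0 genes were higher and 3 lower, against 4.04% and 0.972% of all genes. These were Mrpl32 (-1.05 ± 0.37), Mrpl42 (-1.06 ± 0.46) and Mrpl52 (-0.75 ± 0.34), each with an adjusted p of 0.872. The lowest difference was that of Mrps6 (-1.07 ± 0.55). The highest were Mrps18a (0.71 ± 0.49), Mrpl12 (0.64 ± 0.47), Mrpl4 (0.63 ± 0.52) and Mrpl45 (0.54 ± 0.33), and limma passed none. The median was -0.10, against 0.22 for all genes, and on rescaled values -0.43 against 0.03. With 1 library left out it ran from -0.29 (without VCP TG sham replicate 4) to 0.06 (without VCP TG sham replicate 1). Without the libraries whose Vcp level went against the label it was -0.01, against 0.30.

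Sham hearts show the transgene without load. Of 77 genes, 0 passed limma, with all 4 groups or the sham groups alone, where 0% of all genes were called with all 4 groups and 0.0144% were called higher and 0% lower with these groups alone. At an unadjusted p of 0.05, 2 genes were higher, Mrpl32 and Mrpl48, and 0 lower, against 1.87% and 2.1% of all genes. The median difference was 0.05, against -0.01 for all genes, and no gene separated the groups in either direction, where 0.605% of all genes separated upward and 0.431% downward. On rescaled values 0 genes separated as well, where 0.804% and 2.29% of all genes did. Mrpl32 had 30.3, 33.3, 19.8 and 36.3 TPM in VCP TG sham and 17.6, 27.3, 14.7 and 14.3 TPM in WT sham, overlapping through VCP TG replicate 3 and WT replicate 2 (0.68 ± 0.25, limma adjusted p = 1). Mrpl48 differed by 0.67 ± 0.32, Mrps6 by 0.66 ± 0.38 and Mrpl42 by 0.57 ± 0.31, each with an adjusted p of 1. The lowest differences were those of Mrps18a (-0.53 ± 0.33), Mrpl4 (-0.44 ± 0.35), Mrpl12 (-0.37 ± 0.32) and Mrpl37 (-0.33 ± 0.33), and limma passed none. Mrpl4 had 32.7, 25.7, 24.0 and 6.02 TPM in VCP TG sham, against 24.8, 32.0, 26.0 and 22.1 TPM in WT sham. Its lowest value was in VCP TG sham replicate 4, the library with the highest mitochondrial share. Without the libraries rich in atrial transcripts, which leaves 2 VCP TG sham libraries, 75 of 77 differences were positive with a median of 0.41, against 0.07 for all genes. Without VCP TG sham replicate 1, whose Vcp level went against the label, the median was -0.08, against -0.07 for all genes, and without VCP TG sham replicate 4 it was 0.25, against 0.20.

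At 5 weeks TAC the genotypes were compared within a separate table, and time and table cannot be told apart. Of 77 genes, 0 passed limma, where 0.00715% of all genes were called higher and 0% lower. At an unadjusted p of 0.05, 4 genes were lower and 0 higher, against 1.64% and 2.85% of all genes. The median difference was -0.16, against 0.03 for all genes, and 17 of 77 were positive, against 54.3% of all genes. It was -0.02 without WT replicate 1 (37 of 77 positive) and -0.03 without VCP TG replicate 3 (34 positive). On rescaled values the median was -0.29, against -0.04 for all genes, and 70 of 77 were negative.

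The 4 genes with an unadjusted p under 0.05 at 5 weeks were Mrpl34, Mrpl42, Mrps16 and Mrpl46. Mrpl34 had 35.4, 33.3 and 24.8 TPM in VCP TG, against 100, 59.5, 36.1 and 48.3 TPM in WT. Every VCP TG library was below every WT library, by little in the nearest pair (-0.86 ± 0.31, limma adjusted p = 0.904). Mrpl42 had 187, 183 and 106 TPM in VCP TG and 384, 294, 166 and 244 TPM in WT, overlapping through WT replicate 3 (-0.75 ± 0.32, adjusted p = 0.904). Mrps16, a relative of a bacterial small subunit protein whose human gene is mutated in a fatal respiratory chain disorder, had 34.1, 30.1 and 22.5 TPM in VCP TG and 70.3, 49.9, 33.7 and 35.9 TPM in WT, overlapping only between VCP TG replicate 1 and WT replicate 3. Its log2 difference was -0.65 ± 0.27 (adjusted p = 0.904). Mrpl46 had 5.51, 5.61 and 5.58 TPM in VCP TG and 8.71, 8.15, 6.71 and 6.96 TPM in WT, with no overlap (-0.39 ± 0.17, adjusted p = 0.904).

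Among the 77 genes, 3 separated the 5 weeks groups downward (Mrpl34, Mrpl46 and Mrps21, a share of 3.90% where all genes gave 1.74%) and 1 upward (Mrps35, a share of 1.30% where all genes gave 3.4%). On rescaled values 12 separated downward (15.6%, against 5.43%) and 0 upward (against 1.42%). Mrps35 had 27.9, 30.6 and 29.2 TPM in VCP TG, against 26.2, 22.6, 27.4 and 25.2 TPM in WT (0.20 ± 0.17, limma adjusted p = 0.904). Mrpl48 was again the highest difference (0.54 ± 0.32, adjusted p = 0.904), with 396, 219 and 279 TPM in VCP TG and 140, 338, 174 and 188 TPM in WT. The groups overlapped through WT replicate 2, the WT library with the highest receptor gene level at 5 weeks (0.310 TPM). Without the 3 libraries whose Vcp level went against the label (VCP TG replicate 3, WT replicates 2 and 3), the median over the 77 genes was -0.11, against 0.12 for all genes, with 30 of 77 positive.

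Several of the proteins act beyond or within the ribosome in known ways, and their genes were described whatever their values. Mrpl12, a stalk protein that also binds the mitochondrial RNA polymerase in human cells, averaged 55.1 ± 9.53 TPM in VCP TG TAC at 2 weeks (n = 3), 45.4 ± 7.59 TPM in WT TAC, 52.0 ± 24.3 TPM in VCP TG sham and 60.5 ± 7.99 TPM in WT sham (n = 4 each). Mrpl3, near the peptidyl transferase centre, averaged 36.9 ± 2.05 TPM in VCP TG TAC and 36.2 ± 3.75 TPM in WT TAC. Mrpl44, which has a ribonuclease III fold, averaged 6.65 ± 1.45 TPM in VCP TG TAC and 5.96 ± 1.43 TPM in WT TAC. Mrps22 averaged 8.45 ± 0.222 TPM in VCP TG TAC and 8.84 ± 1.53 TPM in WT TAC. For each of these 4 genes the VCP TG TAC and WT TAC libraries overlapped, and limma passed none in any comparison.

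Mrps36 is by now counted as a subunit of the oxoglutarate dehydrogenase complex, not of the ribosome. It averaged 59.4 ± 6.99 TPM in VCP TG TAC at 2 weeks (n = 3), 74.9 ± 9.33 TPM in WT TAC, 60.8 ± 17.0 TPM in VCP TG sham and 54.0 ± 19.3 TPM in WT sham (n = 4 each). Mrps30, despite its symbol a large subunit protein, averaged 7.61 ± 1.49 TPM in VCP TG TAC and 8.32 ± 1.86 TPM in WT TAC. Mrpl41 averaged 20.0 ± 2.72 TPM in VCP TG TAC and 21.2 ± 2.32 TPM in WT TAC, and Mrpl11, at the base of the stalk, 5.05 ± 0.770 TPM in VCP TG TAC and 4.59 ± 0.925 TPM in WT TAC. Mrps2 averaged 30.1 ± 5.30 TPM in VCP TG TAC and 26.5 ± 2.53 TPM in WT TAC, and Mrps34 19.1 ± 3.44 TPM in VCP TG TAC and 23.7 ± 4.46 TPM in WT TAC. None of them passed limma in any comparison.

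Mrps6, a relative of a bacterial small subunit protein, varied most of all, 8.22-fold between libraries. In WT TAC at 2 weeks it had 66.2, 24.0, 19.4 and 24.6 TPM, against 20.7, 32.0, 13.7 and 10.7 TPM in WT sham. In VCP TG it had 21.3, 25.3 and 20.1 TPM in TAC at 2 weeks, against 30.0, 31.4, 44.6 and 15.9 TPM in sham. The highest libraries, WT TAC replicate 1 and VCP TG sham replicate 3, were those with the highest summed atrial markers (9595 and 10591 TPM). Slc5a3, a sodium and inositol transporter gene that shares strand and position with Mrps6, was also highest there, at 4.64 and 5.65 TPM, against 0.839 to 2.65 TPM in the others. The other libraries rich in atrial transcripts were not high in Mrps6. VCP TG sham replicate 4 (1724 TPM of atrial markers) had the lowest Mrps6 level of its group, 15.9 TPM. VCP TG TAC replicate 2 at 2 weeks (4068 TPM) had 25.3 TPM, below the 32.0 TPM of WT sham replicate 2. The part of atrial tissue or of the shared locus in the Mrps6 values was not tested.

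The ratio of summed Mrpl to summed Mrps TPM was 2.49, 2.24 and 2.20 in VCP TG TAC at 2 weeks, against 1.92, 2.02, 1.95 and 2.10 in VCP TG sham, and 1.95, 1.95, 2.11 and 2.09 in WT TAC, against 1.66, 1.85, 1.71 and 1.69 in WT sham. TAC libraries lay above sham libraries within each genotype. Without Mrpl48 the ratio was 1.85, 1.86 and 1.83 in VCP TG TAC, against 1.81, 1.93, 1.502 and 1.84 in VCP TG sham, which overlap, and 1.77, 1.83, 1.86 and 1.91 in WT TAC, against 1.57, 1.75, 1.56 and 1.52 in WT sham, which do not. The separation in VCP TG thus rested on Mrpl48, and that in WT did not rest on Mrpl48. No other gene was left out of the ratio. Mrpl42, the most abundant gene in the Mrpl sum, had 418 to 492 TPM in WT TAC and 141 to 337 TPM in WT sham. The ratio was not computed without Mrpl42. The separation in WT therefore cannot be read as one of the large subunit genes in general. Whether that separation rested on Mrpl42 or another abundant gene was not tested.

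Across the 77 genes, the log2 difference between WT TAC and WT sham at 2 weeks had a Spearman rho with mean level of 0.37, against -0.15 over all genes, and that between VCP TG TAC and WT TAC one of -0.39, against -0.23 over all genes. The comparisons share the WT TAC libraries. Against median transcript length, rho was -0.19 for WT TAC minus WT sham, against -0.20 over all genes, and 0.35 for VCP TG TAC minus WT TAC, against 0.01 over all genes. These are descriptions across genes, which share libraries and are not independent replicates.

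Other genes of the mitochondrial translation system were described from lists of known genes. Among 5 further ribosomal proteins with other names (Dap3, Ptcd3, Chchd1, Aurkaip1 and Gadd45gip1), 24 assembly factors, 15 translation factors, 20 genes for charging transfer RNAs, 7 genes of mitochondrial transcription, 10 regulators of biogenesis and 13 mitochondrially encoded proteins, 0 of the genes tested passed limma in any of the 6 comparisons with all groups of a table in the fit. Chchd1, a small subunit protein, had 67.8, 82.6, 65.8 and 88.1 TPM in WT TAC and 66.2, 85.9, 31.0 and 28.6 TPM in WT sham, which overlap (0.66 ± 0.32, adjusted p = 0.441). With WT TAC and WT sham alone in the fit, where 6.31% of all genes fell, 1 of 24 assembly factors fell, a share below that of all genes. This was Mrm3, a methyltransferase of the large ribosomal RNA, which fell to 2.92, 3.81, 3.07 and 3.64 TPM in WT TAC, against 6.66, 8.05, 5.06 and 6.30 TPM in WT sham (-0.78 ± 0.17, limma adjusted p = 0.0284). In the same fit 1 of 10 regulators fell, Esrra, a nuclear receptor that drives respiratory genes, to 7.92, 10.1, 10.6 and 9.22 TPM in WT TAC, against 21.8, 22.9, 19.7 and 16.4 TPM in WT sham (-1.02 ± 0.16, adjusted p = 0.0136). The median difference between WT TAC and WT sham was -0.58 over the 10 regulators, -0.19 over the assembly factors and 0.15 over the mitochondrially encoded proteins, against 0.15 over the 77 ribosomal protein genes. The mitochondrial ribosomal RNAs were not analysed here.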

How the data were processed

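The members and gene lists were chosen with earlier results of these data known. Per the labels' protocols, total RNA (Qiagen miRNeasy) went into TruSeq Stranded mRNA libraries. Trimmomatic 0.35, kallisto 0.43.1, STAR 2.5.4b, DESeq2 and GRCm38 are named, with no role, in the submitters' processing notes. The authors deposited TPM, 1 table per time point, and each column sums to 1000000. Which tool made the values, and how reads of overlapping genes were assigned, are not given in the sources used here.

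Gene symbols, positions and types came from GENCODE M21 on GRCm38, which holds 30074 of the 30735 identifiers. The other 661 held 1.90% to 25.9% of TPM in a library. They have no gene type here and were left out of the nuclear protein-coding total used for rescaling. Log2(TPM + 1) was fitted with limma 3.58.1 in R 4.3.3 with a variance trend and robust moderation, 1 mean per group, two-sided, over genes that reached 1 TPM in 3 or more libraries (15540 genes at 2 weeks with 4 groups, 13986 at 5 weeks with 2 groups). P-values were adjusted by Benjamini-Hochberg over all genes tested, with a threshold of 0.05. Fold changes on this scale understate low genes. A second fit held the compared groups alone. The filter was applied again after rescaling, and 20306 genes then passed at 2 weeks with 4 groups. Medians of all genes on rescaled values are over the genes that passed then. Shares of separated genes on rescaled values used the genes that passed on deposited values. The script was tested on simulated data. No pair of libraries was identical (highest correlation 0.983).

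Genes named are those that passed in either fit, the 4 highest and 4 lowest differences per comparison, the 5 highest and 5 lowest levels and a list with known roles; genes with separated groups were named after their values were seen. Replicate numbers recur between groups. Deviations of same-numbered libraries correlated by 0.107 to 0.260 in all 4 pairs of the sham comparison alone. Differently numbered pairs of that comparison ranged from -0.249 to 0.231. The number was also fitted as a block in all 6 comparisons. The planned count models were not used, since the values are TPM. Alternatives were the scale, pseudocount, filter, moderation, groups in the fit, replicate block and libraries left out.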

Additional observations from a re-analysis of the deposited data

Results flagged for a closer look

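In groups of 4 libraries, the highest or lowest library was set against the other 3 by Dixon's test at 95%, for the summed level and each named gene. Of 148 groups tested, 8 had a library that stood apart, and chance gives about 1 in 20.

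Mrps6 had 66.2 TPM in WT 2 weeks TAC replicate 1, against 19.4 to 24.6 TPM in the other 3. In the same library Mrps18a was low, at 22.05 TPM against 35.2 to 37.2 TPM. That library is rich in atrial transcripts, and its Vcp level (119 TPM) went against its label. In WT 2 weeks TAC replicate 2, Mrpl42 had 492 TPM, against 418 to 430 TPM, and Mrpl30 had 149 TPM, against 118 to 121 TPM. Mrpl42 had 153 TPM in VCP TG sham replicate 3, against 365 to 396 TPM in the other 3. Mrpl57 had 1.12 TPM in VCP TG sham replicate 4, the library with the highest mitochondrial share, against 4.98 to 5.69 TPM. At 5 weeks, Mrps18a had 21.1 TPM in WT TAC replicate 4, against 34.1 to 36.5 TPM, and Mrpl11 had 5.79 TPM in WT TAC replicate 1, against 3.65 to 4.01 TPM.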

How the results depend on the processing

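Of 912 values of named genes recomputed under alternatives, 885 kept direction and side of the threshold, 11 moved past the threshold and 16 changed sign. The cause of each change was not tested. Between VCP TG TAC and VCP TG sham at 2 weeks, the number of genes called was 1 without the libraries rich in atrial transcripts (4.80% of all genes were called higher), where the median was -0.34, and 0 to 1 when 1 library was left out, with all groups or these groups alone. The 1 came without VCP TG sham replicate 3, where 4.93% of all genes were called higher with all groups and 3.48% with these groups alone. The sign of Mrps18a turned to -0.027 on rescaled values and -0.28 without the atrial-rich libraries, and ran from -0.13 (without VCP TG sham replicate 4) to 0.53 when 1 library was left out. Between WT TAC and WT sham the count was 2 with these groups alone, 3 higher without the atrial-rich libraries (against 0.821% of all genes higher and 7.40% lower), 3 without VCP TG sham replicate 4, which enters only the shared spread (2 higher and 1 lower, against 0.439% and 5.49%), 6 with these groups alone on rescaled values (5 higher and 1 lower, against 1.62% and 7.21%), and 0 to 6 with these groups alone and 1 library left out. Between VCP TG TAC and WT TAC at 2 weeks the count was 1 without the atrial-rich libraries (4.30% of all genes were called higher) and 0 to 1 with these groups alone and 1 library left out; the median was -0.42 on rescaled values and -0.17 after quantile normalization. The interaction median was -0.43 on rescaled values and -0.48 without the atrial-rich libraries, where Mrpl4 (-0.015) and Mrps18a (-0.010) changed sign. In sham hearts, without the atrial-rich libraries Mrps18a was 0.14, Mrpl4 0.15, Mrpl12 0.17 and Mrpl37 0.28, and with 1 library left out Mrpl4 ran from -0.69 to 0.064, Mrpl12 from -0.61 to 0.048 and Mrpl37 from -0.59 to 0.089, each highest without VCP TG sham replicate 4. Rescaled summed levels averaged 6442 in VCP TG and 8898 in WT at 2 weeks TAC, 7970 in VCP TG sham, 7033 in WT sham, and 5684 in VCP TG and 7108 in WT at 5 weeks TAC, and VCP TG TAC at 2 weeks without Mrpl48 averaged 2433 TPM. With the replicate block the number of genes called stayed 0 in all 6 comparisons with all groups, and the sham median was 0.05. The median turned to -0.08 for VCP TG TAC against VCP TG sham (against -0.09 for all genes). It moved to -0.14 for VCP TG against WT at 2 weeks TAC, -0.23 at 5 weeks and -0.20 for the interaction. For WT TAC against WT sham alone the block gave 3 genes higher and 0 lower, against 0.999% and 3.81% of all genes. Fits of groups alone that leave out 1 library, and the sum without Mrpl48, were chosen after seeing the data. Read depth is unknown, so what it limits could not be computed.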
